A study of Mus musculus with 2 samples.

Results

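The 41 genes described here encode nucleolar proteins and the factors of RNA polymerase I, the enzyme that transcribes ribosomal DNA. They were listed by symbol for their known roles. No measured value was used for this, but earlier results of these data were known when the list was made. All 41 were found among the 49943 genes of chromosomes 1 to 19, X and Y in the RefSeq table. They fell into 6 role groups: 12 genes of polymerase I and its factors, 3 box C/D proteins, 4 H/ACA proteins, 8 small subunit processome factors, 7 large subunit assembly factors and 7 other nucleolar proteins. What was measured at them is DNA breakage and not expression. END-seq ligates an adapter to DNA break ends and sequences from there, so each read marks the position of an end, and a read runs into the DNA that was still attached.

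The study asked where breaks that depend on replication arise in primary mouse B cells to which no damaging agent was given. Splenic cells were depleted of CD43-positive cells with magnetic beads, from mice of 4 to 8 weeks. The first group, labelled S phase and activated, was kept for 24 to 28 h with IL-4 at 25 ng/mL and anti-CD40 at 1 µg/mL. The other, labelled G1 phase and quiescent, was cultured without them. Both sample titles begin with ATR+c, which the labels do not explain. The sources used here give neither strain, sex and number of animals nor the way the phases were obtained. Break ends come from DNA, so the labelled cell type was not checked against marker expression.

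In the nucleolus, polymerase I is recruited to ribosomal DNA promoters by the upstream binding factor, by selectivity factor SL1 and by the initiation factor Rrn3. The precursor RNA is then modified under the guidance of box C/D and H/ACA small nucleolar RNAs, cut, and packed with ribosomal proteins by the small subunit processome and the large subunit assembly factors. B cells leaving quiescence enlarge their nucleoli and make more ribosomes before they divide. The genes for these proteins are themselves transcribed by RNA polymerase II, mostly from short promoters rich in CpG.

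There was 1 library in each group, so no test of the conditions was possible, and every ratio compares these libraries only. In S phase 21997695 reads were deposited on 7752336 positions, each a base on one strand, which is 2.84 reads per position. The G1 library held 28933109 reads on 7538681 positions, or 3.84 reads per position. Reads were counted in each gene with 2 kb on both sides, called the gene window here, and scaled to the reads on chromosomes 1 to 19 (20543572 in S phase against 26889564 in G1 phase). Ratios are S phase over G1 phase with an exact 95% interval for 2 Poisson counts. Without molecular identifiers, reads stacked on a base can be copies, so intervals cover counting error only and are too narrow where reads are stacked. Covered positions, where every base and strand with a read counts once, were therefore counted as well and stand beside the results that turn on few reads or on stacks.

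Across the 41 genes, break ends were slightly more frequent in the S-phase library, by about as much as at protein-coding genes in general. The median ratio was 1.1, with a range from 0.658 at Nolc1 to 2.03 at Fbl. On the log2 scale the median of the nucleolar genes was 0.13, and it was 0.13 over 20298 protein-coding genes and 0.09 over all 39224 genes with at least 50 reads in a library. Ratios lay above 1 at 29 genes (70.7%) and below 1 at 12, where the share above 1 among protein-coding genes was 66.8%. The reads of the 41 genes, per 1000000 scaled reads and kb of window, had a median of 0.477 in S phase and 0.453 in G1 phase. The medians of protein-coding genes on the same scale were 0.402 and 0.372.

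A gene was called higher at a ratio of at least 1.5 and lower at a ratio of at most 0.667, with both strands on the same side of 1. By this rule 6 of the 41 genes (14.6%) were higher, against 10.8% of protein-coding genes and 11.8% of all genes. They were Taf1d, Ttf1, Fbl, Rrp9, Bop1 and Ftsj3. Only Nolc1 was lower (2.44%), against 3.57% of protein-coding genes and 7.47% of all genes. The read interval lay above 1 at 16 genes (protein-coding genes, 37.6%) and below 1 at 3, namely Nolc1, Ddx21 and Wdr43 (protein-coding genes, 11.4%). At 18 genes the strands lay on opposite sides of 1, and among protein-coding genes this was so in 41%.

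Counted by covered positions, more of these genes lay above 1, but fewer had intervals that excluded it. The median log2 ratio of positions was 0.21, against 0.18 for protein-coding genes, and 35 of 41 genes (85.4%) lay above 1. This share was not counted over protein-coding genes. Among the 76 other genes of the pathway described below it was 82.9%. Taf1c, Taf1d, Fbl and Rrp9 were called higher by positions (protein-coding genes, 10.2%) and 0 genes lower (protein-coding genes, 2.76%). Position intervals lay above 1 at Taf1d, Fbl, Rrp9, Utp20 and Npm1, 5 genes in all, where 16% of protein-coding genes had such an interval. None of the 41 had one below 1, against 3.28% of protein-coding genes. Taf1d, Fbl and Rrp9 were the genes called higher by both ways of counting. The ratio of the 1 Mb around each gene ran from 0.998 to 1.26 with a median of 1.12, and 21 of the 41 genes lay above their own surroundings. The latter count was not made for other genes. Set against those surroundings, Taf1d, Fbl and Rrp9 still passed 1.5, at 1.68, 1.9 and 1.73, whereas Ttf1 stood at 1.41, Bop1 at 1.32 and Ftsj3 at 1.29.

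**Figure D1:**
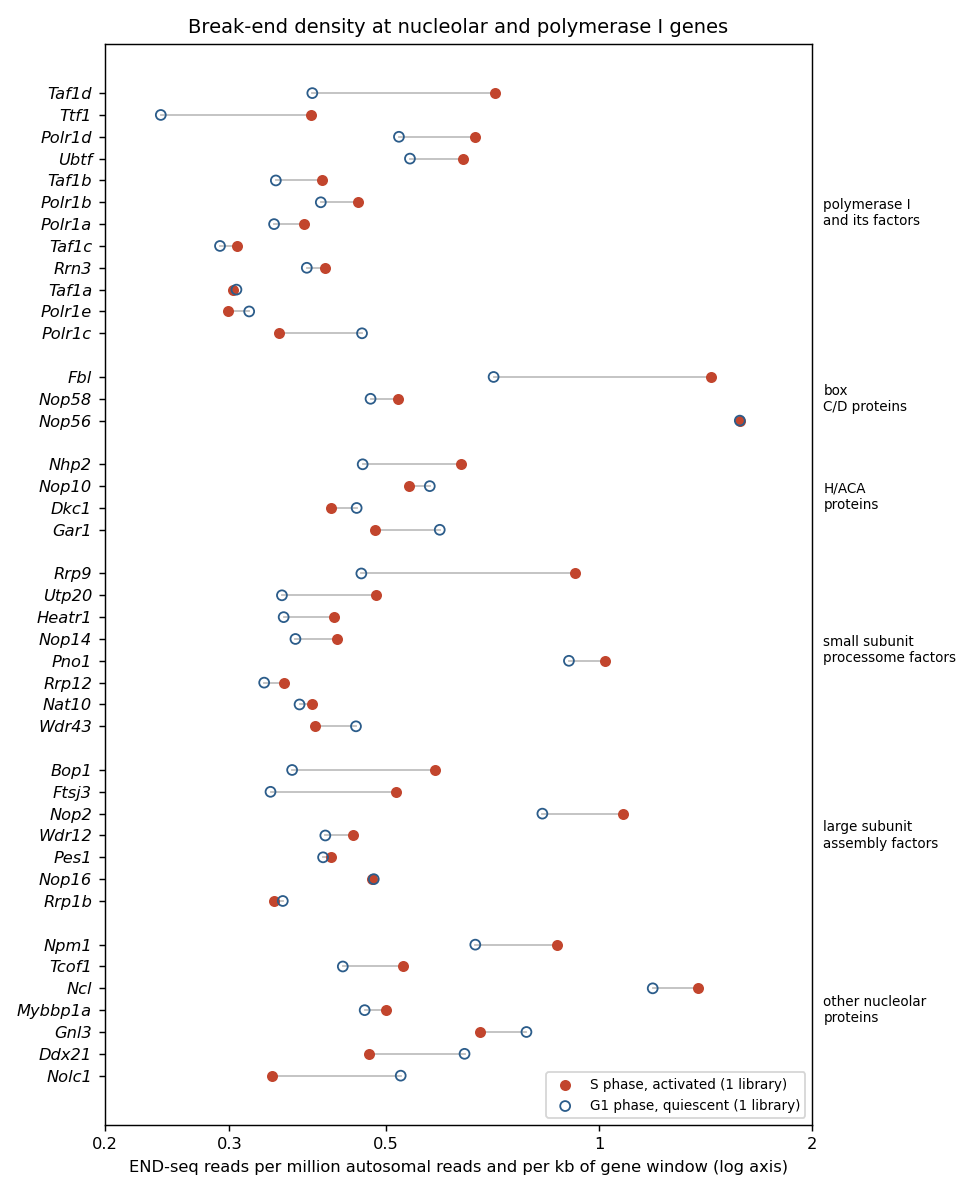
Break-end density of the 41 genes, in reads per 1000000 autosomal reads and per kb of gene window on a log axis, grouped by role and sorted by ratio, with filled points for the S-phase library and open points for the G1 library. Nop56 had the highest G1 density (1.58) and the same value in S phase, and the gap between libraries was widest at Fbl, Rrp9 and Taf1d.

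The subunits of polymerase I itself had ratios near those of other genes. Polr1d, a small subunit shared with RNA polymerase III, had 530 reads in S phase against 541 in G1 phase, with 230 and 230 on the plus strand and 300 and 311 on the minus strand. Its ratio was 1.28 (1.14 to 1.45), the highest among the subunits, and both strands lay above 1. Polr1a, the largest subunit, had 585 and 694 reads and a ratio of 1.1 (0.987 to 1.23), and Polr1b, the second large subunit of the catalytic core, had 291 and 338 reads and a ratio of 1.13 (0.96 to 1.32). Their intervals held 1. Polr1e, which forms a subcomplex on the side of the enzyme, had 65 plus and 56 minus reads in S phase against 78 and 91 in G1 phase, which gave 0.937 (0.736 to 1.19). Polr1c, the partner of Polr1d, had the lowest ratio of the group at 0.765 (0.545 to 1.06). Its plus strand held 38 reads in S phase against 82 in G1 phase and its minus strand 21 and 19, so the strands pointed in opposite directions.

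Of the 4 SL1 subunits, which with the TATA-binding protein set the start site on ribosomal DNA, Taf1d stood apart. It had 220 reads in S phase (99 plus and 121 minus) against 159 in G1 phase (88 plus and 71 minus), a ratio of 1.81 (1.47 to 2.24). By positions, 70 against 39, the ratio was 1.71 (1.14 to 2.59), and with flanks of 5 kb the read ratio was 1.45, below the rule. Over bases in no other gene the read ratio was 1.5, and Taf1d was not called higher. Its window overlaps 10 other genes, and the start of 4931406C07Rik, on the opposite strand, lies 47 bases from that of Taf1d. By reads, the excess of Taf1d was not only at its start. Within 1 kb of the start the ratio was 1.72 (54 and 41 reads). In the rest of the window, outside listed gene starts, it was 1.79 (161 and 118 reads). By positions this rest, with 49 and 31, gave 1.5 (0.939 to 2.44), an interval that held 1. Taf1b had 533 and 600 reads, a ratio of 1.16 (1.03 to 1.31). Taf1a had 158 reads (95 plus and 63 minus) against 209 (110 and 99), a ratio of 0.99 (0.8 to 1.22), with its strands on opposite sides of 1. Taf1c had 71 and 88 reads, a ratio of 1.06 (0.761 to 1.46), whereas its positions, 31 and 18, gave 1.64 (0.888 to 3.11).

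Among the other polymerase I factors, Ttf1 was called higher. This protein binds the terminator elements of ribosomal DNA, where it ends transcription and halts replication forks. Its gene had 253 reads in S phase (138 plus and 115 minus) against 203 in G1 phase (97 plus and 106 minus), a ratio of 1.63 (1.35 to 1.97). Its position ratio was smaller, 1.39 (0.983 to 1.96), and its interval held 1. Ubtf, the upstream binding factor that coats active ribosomal DNA, had 304 and 335 reads and a ratio of 1.19 (1.01 to 1.39). Rrn3, which ties the polymerase to the promoter, had 321 and 396 reads and a ratio of 1.06 (0.913 to 1.23). In all, 2 of these 12 genes were called higher and 0 lower, and the median log2 ratio was 0.16.

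**Figure D2:**
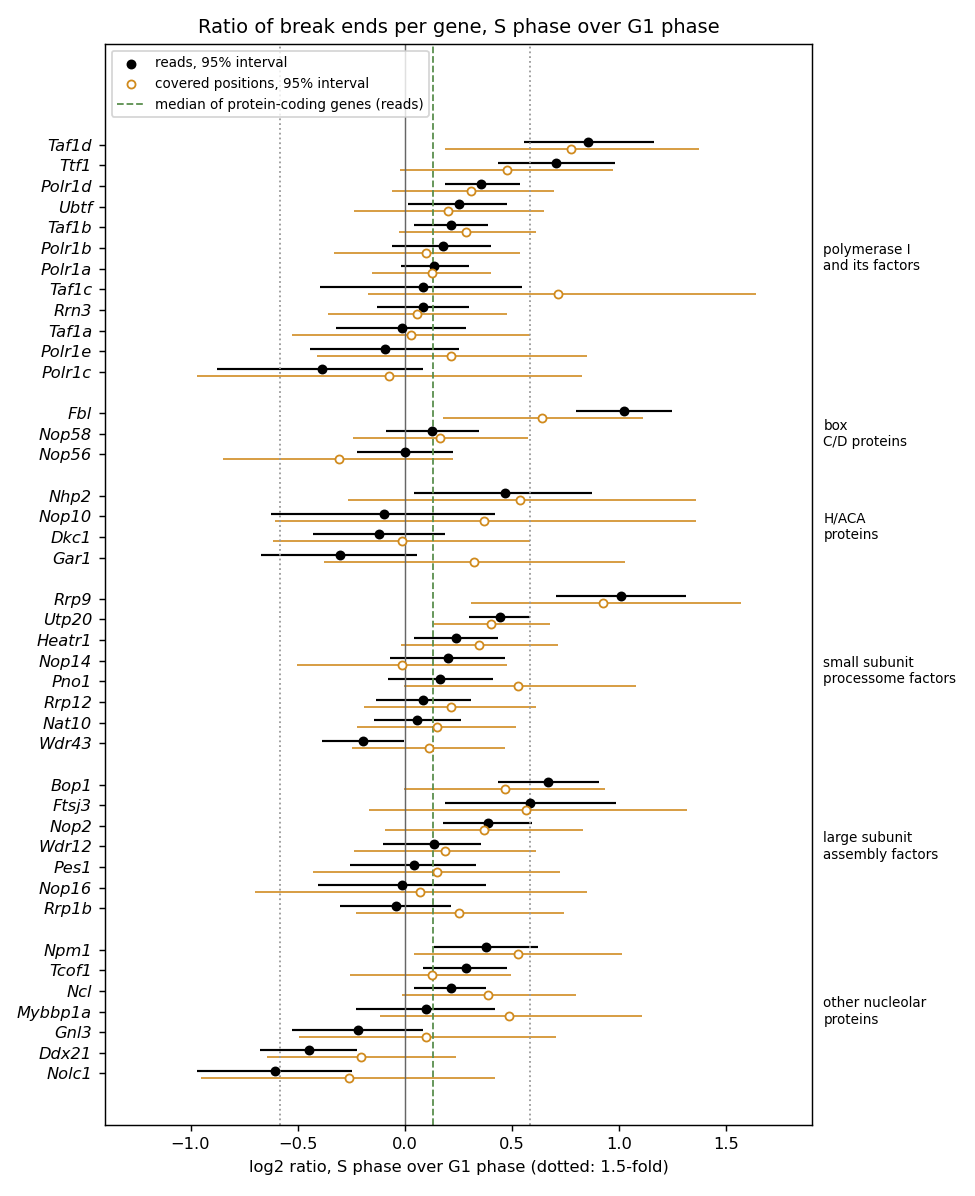
The log2 ratio of break ends per gene, S phase over G1 phase, with 95% counting intervals, for reads (filled) and covered positions (open); dotted lines mark 1.5-fold and the dashed line the protein-coding median of 0.13. Most read points lie to the right of 0 (29 of 41), Fbl and Rrp9 lie farthest right, and Nolc1 lies farthest left.

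The box C/D proteins held the highest ratio of all 41 genes, at Fbl. Fibrillarin, its product, is the methyltransferase of box C/D particles. The window of Fbl (chr7:28168893-28179269 with 2 kb on each side) held 424 reads in S phase (171 plus and 253 minus) against 274 in G1 phase (164 plus and 110 minus). The ratio was 2.03 (1.74 to 2.37), mainly through the minus strand at 3.01 against 1.36 on the plus strand. Its positions, 105 and 64, gave a smaller ratio of 1.56 (1.13 to 2.16). The excess lay near a neighbouring gene. The start of Dyrk1b, a protein kinase gene, lies 214 bases beyond the high-coordinate end of Fbl, and within 1 kb of that end there were 305 reads in S phase against 152 in G1 phase, a ratio of 2.63 (2.15 to 3.21) by reads and 1.81 (1.17 to 2.86) by positions. The part of the window away from the starts of Dyrk1b and Gm31024 held 75 and 94 reads, a ratio of 1.04, and the gene without its flanks had a ratio of 1.15.

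The other pair of box C/D proteins, which form the scaffold that fibrillarin sits on, did not pass the rule. Nop56 (chr2:130274367-130279313) had 290 reads in S phase (166 plus and 124 minus) against 379 in G1 phase (196 plus and 183 minus), a ratio of 1.00 (0.857 to 1.17). Its density, 1.58 in both libraries, was the highest of the 41 genes in each. Nop58 had 326 and 390 reads (163 plus and 163 minus, against 173 and 217), a ratio of 1.09 (0.942 to 1.27). The median log2 ratio of the 3 genes was 0.13.

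The 4 H/ACA genes had the lowest median by reads, and counting positions turned its sign. They encode the core of the particles that turn uridine into pseudouridine. Nhp2 had 104 reads in S phase (54 plus and 50 minus) against 99 in G1 phase (39 and 60), a ratio of 1.38 (1.03 to 1.83). The shortest of the 41 genes, Nop10 (0.973 kb), had 55 and 77 reads, a ratio of 0.935 (0.649 to 1.34). Its plus strand held 44 and 29 reads and its minus strand 11 and 48, so it was high in S phase on one strand and in G1 phase on the other. Dkc1, the pseudouridine synthase gene and the only one of the 41 on X, had 154 and 219 reads (87 plus and 67 minus, against 130 and 89), a ratio of 0.92 (0.744 to 1.14). Gar1 had 104 and 168 reads, a ratio of 0.81 (0.628 to 1.04), with 50 and 113 on the plus strand and 54 and 55 on the minus strand. The group's median log2 ratio was -0.11 by reads and 0.33 by positions, and 0 of the 4 genes passed the rule.

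Among the small subunit processome factors, Rrp9 had the clearest excess in S phase. Its product, a WD-repeat protein, recognises the U3 small nucleolar RNA particle. The gene (chr9:106477309-106485415) had 230 reads in S phase (112 plus and 118 minus) against 150 in G1 phase (88 plus and 62 minus), a ratio of 2.01 (1.63 to 2.48). By positions, 68 and 34, the ratio was 1.9 (1.24 to 2.96). Without the flanks, which hold the stretch before its start, the ratio was 1.19. Utp20, the longest of the 41 genes at 80.2 kb, had 836 reads (385 plus and 451 minus) against 805 (339 and 466), a ratio of 1.36 (1.23 to 1.5). Its excess was spread along the gene: its start had a ratio of 2.11 from 29 and 18 reads, while the remaining 807 and 787 reads gave 1.34.

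The other processome genes lay closer to 1. Heatr1, a member of the subcomplex that joins the processome to early transcription, had 412 reads (215 plus and 197 minus) against 457 (268 and 189), a ratio of 1.18 (1.03 to 1.35). Wdr43, of the same subcomplex, had the lowest ratio of the group, 0.873 (0.765 to 0.996), from 381 reads (182 plus and 199 minus) against 571 (295 and 276). By positions Wdr43 stood at 1.08 (0.843 to 1.38), on the other side of 1. Nat10, which acetylates cytidines of the small subunit rRNA, had 368 reads (194 plus and 174 minus) against 463 (187 and 276), a ratio of 1.04 (0.905 to 1.2). Rrp12, an export and maturation factor, had 299 reads (152 plus and 147 minus) against 368 (149 and 219), a ratio of 1.06 (0.91 to 1.24). Nop14 and Pno1 had ratios of 1.15 and 1.12. Of the 8 genes 1 was called higher and 0 lower, and the median log2 ratio was 0.18.

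Of the large subunit assembly factors, Bop1 and Ftsj3 were called higher. Bop1 forms the PeBoW complex with Pes1 and Wdr12. Its gene had 340 reads in S phase (126 plus and 214 minus) against 280 in G1 phase (125 and 155), a ratio of 1.59 (1.35 to 1.87), with positions at 1.38 (0.998 to 1.91). Its densest 200 bases, centred 38 bases beyond the high-coordinate end, held 88 and 76 reads, and without them the ratio was 1.62. Its partners did not share the excess: Wdr12 had 287 and 343 reads, a ratio of 1.1 (0.933 to 1.28), and Pes1 had 172 reads (103 plus and 69 minus) against 219 (97 and 122), a ratio of 1.03 (0.837 to 1.26). Ftsj3, an RNA methyltransferase of the maturing large subunit, had 116 reads (69 plus and 47 minus) against 101 (61 and 40), a ratio of 1.5 (1.14 to 1.98) at the edge of the rule, with positions at 1.48 (0.891 to 2.49).

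Nop2, which methylates cytidine in large subunit rRNA, shows how a single spot can fill a gene's count. It had 376 reads (254 plus and 122 minus) against 377 (291 and 86), a ratio of 1.31 (1.13 to 1.51), with positions at 1.29 (0.938 to 1.78). A stretch of 200 bases centred 429 bases beyond its high-coordinate end, where Iffo1 overlaps the window, held 230 of the S-phase reads and 234 of the G1 reads, and without it the ratio was 1.34. Nop16 had 97 reads (34 plus and 63 minus) against 128 (51 and 77), a ratio of 0.992 (0.754 to 1.3). Rrp1b had 219 reads (130 plus and 89 minus) against 295 (115 and 180), a ratio of 0.972 (0.812 to 1.16). In this group 2 of 7 genes were higher and 0 lower, and the median log2 ratio was 0.13.

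The other nucleolar proteins ranged from the moderately high Npm1 to the lowest gene of all. Nucleophosmin, the product of Npm1, is a histone chaperone that forms the granular component of the nucleolus. Its gene had 280 reads (159 plus and 121 minus) against 281 (148 and 133), a ratio of 1.3 (1.1 to 1.54), and 94 and 62 positions, a ratio of 1.44 (1.03 to 2.02). The 2 kb around its high-coordinate end held 112 and 73 reads, a ratio of 2.01 (1.48 to 2.74), and those around its low-coordinate end 32 and 46, a ratio of 0.911 (0.561 to 1.46). Tcof1, whose product treacle links polymerase I to modification and repair factors, had 426 reads (224 plus and 202 minus) against 458 (236 and 222), a ratio of 1.22 (1.06 to 1.39). Ncl encodes nucleolin, an RNA-binding protein and histone chaperone, and had 530 reads (175 plus and 355 minus) against 599 (236 and 363), a ratio of 1.16 (1.03 to 1.3). Mybbp1a, a repressor bound to nucleolar RNA, had a ratio of 1.07.

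The 3 lowest genes of this group were lower by reads than by positions. Nolc1, a chaperone of small nucleolar particles, had 97 reads in S phase (64 plus and 33 minus) against 193 in G1 phase (115 and 78), a ratio of 0.658 (0.51 to 0.844). Both strands were low, but its positions, 36 and 41, gave 0.835 (0.518 to 1.34). The RNA helicase gene Ddx21 had 253 reads (100 plus and 153 minus) against 452 (258 and 194), a ratio of 0.733 (0.626 to 0.856). Only the plus strand carried that difference, at 0.507 against 1.03 on the minus strand, and positions gave 0.869 (0.64 to 1.18). Gnl3, the nucleostemin gene, had 149 reads (79 plus and 70 minus) against 227 (116 and 111), a ratio of 0.859 (0.694 to 1.06). None of the 7 genes was called higher and 1 lower, with a median log2 ratio of 0.10.

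Of the 41 genes, 7 carry small nucleolar RNA genes inside their bounds, 24 such genes in all: Taf1d, Nop56, Nop58, Dkc1, Wdr43, Ncl and Gnl3. The median log2 ratio of these hosts was 0.00, against 0.15 in the 34 others, and their ratios ran from 0.859 to 1.81. Their median density was higher, 0.678 in S phase and 0.475 in G1 phase, against 0.464 and 0.408. With 7 genes and 1 library per group this is a description of these libraries.

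Break ends were concentrated at the starts of these genes in both libraries, and more so in S phase. A start was known for 36 of the 41 genes from RefSeq promoters (GRCm38.p6), and at 32 of them it lay within 100 bases of the gene's outer end. Within 1 kb of these 36 starts there were 2524 reads in S phase against 2273 in G1 phase, 26.2% and 20.1% of the reads in the windows. For protein-coding genes the shares were 10.5% and 7.87%, over windows that are longer on the whole. Per base, starts were 4.34 times as dense as the rest of the window in S phase and 3.08 times in G1 phase, against 3.07 and 2.24 for protein-coding genes. By positions the values were 3.15 and 2.35, against 2.37 and 1.83. Without Ncl and Nop56, left out after seeing the data, reads gave 3.64 and 2.35, so the G1 value was then near that of protein-coding genes. The start was denser than the rest of the window in 33 of 36 genes in S phase (91.7%) and in 27 of 36 in G1 phase (75.0%), where protein-coding genes had 67.0% and 63.1%.

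The difference between the libraries was larger at the starts than in the rest of the windows. The ratio within 1 kb of the starts was 1.45 (1.37 to 1.54) by reads and 1.49 (1.32 to 1.69) by positions. The rest of the windows left out 1 kb around each gene's outermost start and around neighbouring starts listed among the RefSeq promoters. It can still hold unlisted starts, and further starts of a gene such as Ubtf, which has 6 promoters listed. In this rest, 6898 and 8743 reads gave a ratio of 1.03 (1.00 to 1.07), and positions 1.11 (1.05 to 1.18). Over 16250 protein-coding genes the same ratios were 1.4 at starts and 1.02 elsewhere, so this pattern was one the nucleolar genes had in common with others. The start ratio lay above 1 in 30 of 36 genes (83.3%, against 67.0% of protein-coding genes) and the ratio of the rest in 17 of 36 (47.2%, against 59.4%). By positions the starts gave the same share, 30 of 36, but the rest lay above 1 in 26 of 36 genes (72.2%, against 66.1% of protein-coding genes), so for the rest both the majority and the order against other genes turned with the way of counting. The S-phase library had fewer reads per position than the G1 library, and the part of this in the start ratio was not tested beyond the position count given here.

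**Figure D3:**
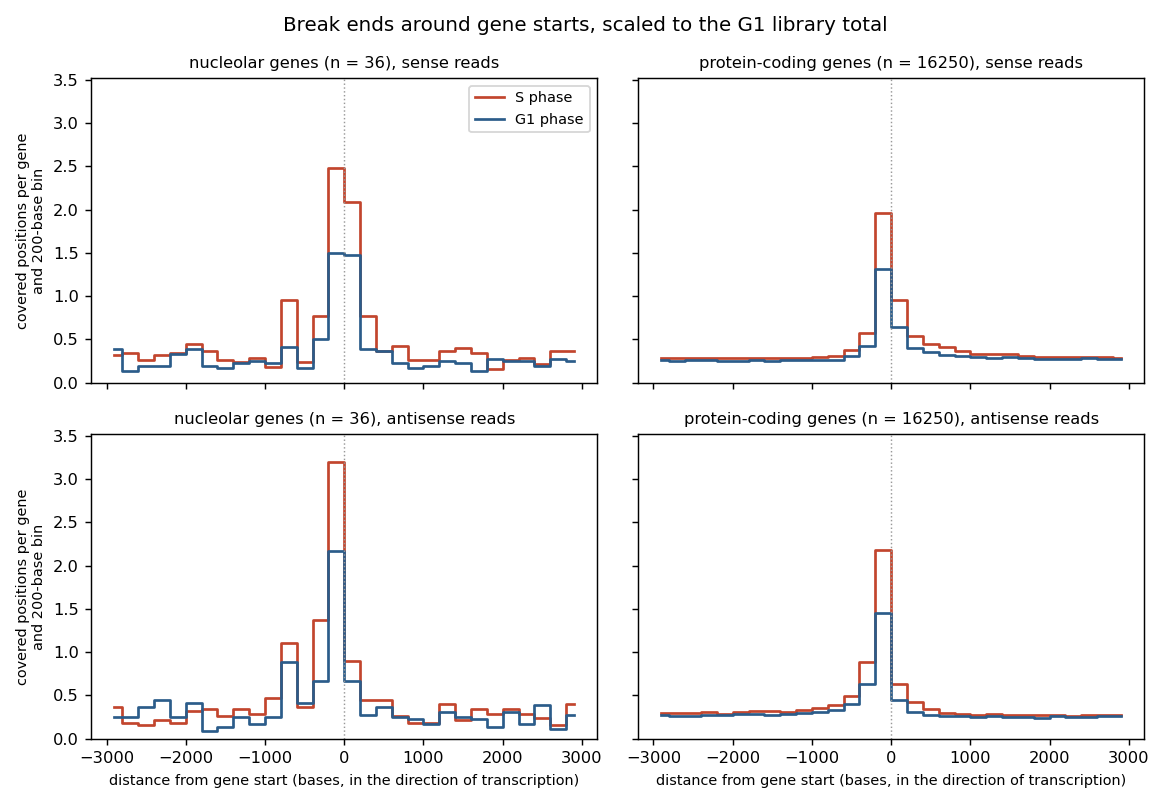
Covered positions per gene in bins of 200 bases around the gene start, by distance in the direction of transcription, for 36 nucleolar genes (left) and 16250 protein-coding genes (right), on the sense strand (top) and the antisense strand (bottom), with S phase scaled to the G1 total. Both libraries peak within 200 bases of the start; upstream on the antisense strand the nucleolar genes reach 3.2 positions in S phase and 2.17 in G1 phase.

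The reads around starts had a strand order. Within 600 bases upstream of the 36 starts, 57.3% of the reads in S phase (54.4% to 60.1%) and 59.8% in G1 phase (56.7% to 62.9%) were antisense. Within 600 bases downstream, 69.9% (66.6% to 73.1%) and 68.3% (64.9% to 71.6%) were sense. Reads on both sides thus ran away from the start more often than towards it, in both libraries. Protein-coding genes showed the same order with shares of 54.6% and 54.2% upstream and 58.3% and 58.3% downstream. A single base of Ncl held 102 of the 551 sense reads downstream in S phase and 128 of the 535 in G1 phase. By positions the nucleolar genes had 58.6% (53% to 64.1%) and 60.0% (52.8% to 66.9%) upstream, against 55.1% and 54.8% of protein-coding genes. Downstream they had 64.2% (57% to 71%) and 63.0% (54% to 71.4%), against 57.9% and 57.7%. Each of these position intervals held the protein-coding share.

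Of the 36 genes, 34 had at least 20 reads within 1 kb of the start in a library, and by the rule of 1.5 with both strands on one side 15 of them (44.1%) were higher in S phase, against 35.9% of protein-coding genes. They were Polr1a, Polr1b, Polr1d, Taf1d, Rrn3, Nop58, Nhp2, Utp20, Wdr43, Heatr1, Nop14, Rrp9, Nat10, Ftsj3 and Nop2. By positions the ratio was below 1.5 at 4 of these 15 starts (Polr1b, Rrn3, Wdr43 and Nop2), and the interval lay above 1 at 6 (Polr1a, Polr1d, Taf1d, Heatr1, Rrp9 and Nat10), against 14 by reads. At 2 genes (5.88%), Nop10 and Nolc1, the start was lower, against 12% of protein-coding genes. By role, start ratios by reads were 1.9 (1.68 to 2.16) for the small subunit processome factors and 1.7 (1.52 to 1.89) for polymerase I and its factors. They were 1.42 (1.17 to 1.72) for the large subunit factors, 1.4 (1.17 to 1.67) for Nop56 with Nop58, 1.19 (0.97 to 1.47) for the H/ACA genes and 0.999 (0.882 to 1.13) for the other nucleolar proteins. By positions the small subunit factors stood at 1.82 (1.4 to 2.37), polymerase I and its factors at 1.58 (1.26 to 1.99) and the large subunit factors at 1.56 (1.08 to 2.29). The intervals of the other groups held 1, at 1.44 (0.933 to 2.24) for the H/ACA genes, 1.2 (0.749 to 1.92) for Nop56 with Nop58 and 1.1 (0.811 to 1.5) for the other nucleolar proteins, and the H/ACA genes changed places with Nop56 and Nop58. The rest of the windows ranged from 0.838 for the H/ACA genes to 1.09 for the large subunit factors by reads, and by positions the H/ACA genes stood at 1.06. Among the other nucleolar proteins Ncl alone held 330 of 452 S-phase reads and 421 of 592 G1 reads at the starts. Likewise, Polr1d alone held 385 of 792 S-phase reads and 273 of 611 G1 reads at the starts of polymerase I and its factors. In that group the start ratio by reads lay above 1 in 11 of 12 genes.

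The 5 starts with the most reads were those of Ncl, Polr1d, Nop56, Pno1 and Rrp9, and they differed from each other in ratio. At Ncl, 330 and 421 reads gave 1.03 (0.886 to 1.19) and positions 1.15 (0.753 to 1.76), with 102 S-phase reads and 128 G1 reads on the same base, 40 bases inside the gene on the sense strand. That base was the highest in both libraries. At Nop56, 216 and 228 reads gave 1.24 (1.02 to 1.5), while the rest of its window, with 74 and 151 reads, stood at 0.641. By positions, 30 and 29, the start of Nop56 had no excess, at 0.983 (0.57 to 1.7), and the rest stood at 0.668. Its highest base differed: 55 antisense reads lay 21 bases upstream in S phase and 52 sense reads 6 bases upstream in G1 phase. Without Ncl and Nop56, a choice made after their stacks were seen, the ratio at the other 34 starts was 1.59 (1.49 to 1.7) by reads and 1.58 (1.38 to 1.81) by positions.

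Polr1d, Pno1 and Rrp9 share their start region with a gene that runs the other way. At Polr1d, 385 and 273 reads gave 1.85 (1.58 to 2.16), against 0.71 in the rest of the window, and positions gave 1.68 (1.14 to 2.5) and 0.935. Most of the start reads, 275 and 219, lay in the 200 bases before the low-coordinate end of the gene, next to the start of Lnx2, and the start of Polr1d in the promoter table lies 631 bases inside the gene. Pno1, an RNA-binding factor of the small subunit, had 156 and 188 reads, a ratio of 1.09 (0.873 to 1.35) and by positions 1.27 (0.77 to 2.11), with the start of Wdr92 304 bases away. Rrp9 had 161 and 86 reads, a ratio of 2.45 (1.87 to 3.22) and by positions 2.15 (1.23 to 3.91), with the start of Parp3 360 bases away, and 60 and 60 reads in the rest of its window. Its highest base was the same in both libraries, 68 bases upstream on the antisense strand, with 24 and 21 reads. So the excess of Rrp9 in S phase lay largely between its own start and that of Parp3.

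At several genes whose whole window had a read ratio from 0.859 to 1.15, the start ratio was higher by reads, and by positions most of these starts had intervals that held 1. Nat10 had 53 reads in S phase against 12 in G1 phase around its start, a ratio of 5.78 (3.05 to 11.9), with 0.914 in the rest; this start lies 1684 bases inside the outer end of the gene. Its positions, 16 and 5, gave 3.04 (1.06 to 10.6), with 1.02 in the rest. Nop14 had 64 and 23 reads, a ratio of 3.64 (2.23 to 6.15) by reads and 2.14 (0.885 to 5.69) by positions, with the start of Grk4 231 bases away. Nop58 had 46 and 17 reads, a ratio of 3.54 (1.99 to 6.59) by reads and 2.22 (0.801 to 7.04) by positions, against 0.983 and 1.05 in the rest. Gnl3, whose start lies 7 bases from that of Pbrm1, had 44 and 25 reads, a ratio of 2.3 (1.38 to 3.93) by reads and 1.54 (0.593 to 4.3) by positions, against 0.68 and 0.976 in the rest. Wdr43 had 72 and 53 reads, a ratio of 1.78 (1.23 to 2.59) by reads and 1.39 (0.651 to 3.06) by positions, against 0.781 and 1.04.

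The starts of Polr1a, Heatr1 and Nhp2 were also higher in S phase. Polr1a had 68 and 36 reads around its start, a ratio of 2.47 (1.63 to 3.81) by reads and 2.5 (1.06 to 6.51) by positions, against 1.02 and 1.03 in the rest, and the start of Ptcd3 lies 291 bases away. Heatr1 had 83 and 45 reads, a ratio of 2.41 (1.66 to 3.55) by reads and 2.16 (1.03 to 4.86) by positions, against 1.05 and 1.17. Nhp2 had 60 and 28 reads, a ratio of 2.8 (1.76 to 4.56) by reads and 2.22 (0.801 to 7.04) by positions, against 0.811 and 1.17.

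By reads, other starts went the opposite way. Nolc1 had 16 reads around its start in S phase against 55 in G1 phase, a ratio of 0.381 (0.204 to 0.674). Nop10 had 18 and 54 reads, a ratio of 0.436 (0.241 to 0.756), with 2.11 in the rest of its small window. By positions these starts stood closer to 1, at 0.691 (0.241 to 1.89) for Nolc1 and 0.951 (0.334 to 2.7) for Nop10, which had 9 positions in each library. Polr1c had 22 and 41 reads, a ratio of 0.702 (0.398 to 1.21) by reads and 0.845 (0.284 to 2.47) by positions. It shared its start region with Yipf3, 35 bases away. All of these position intervals held 1, as did the read interval of Polr1c.

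**Figure D4:**
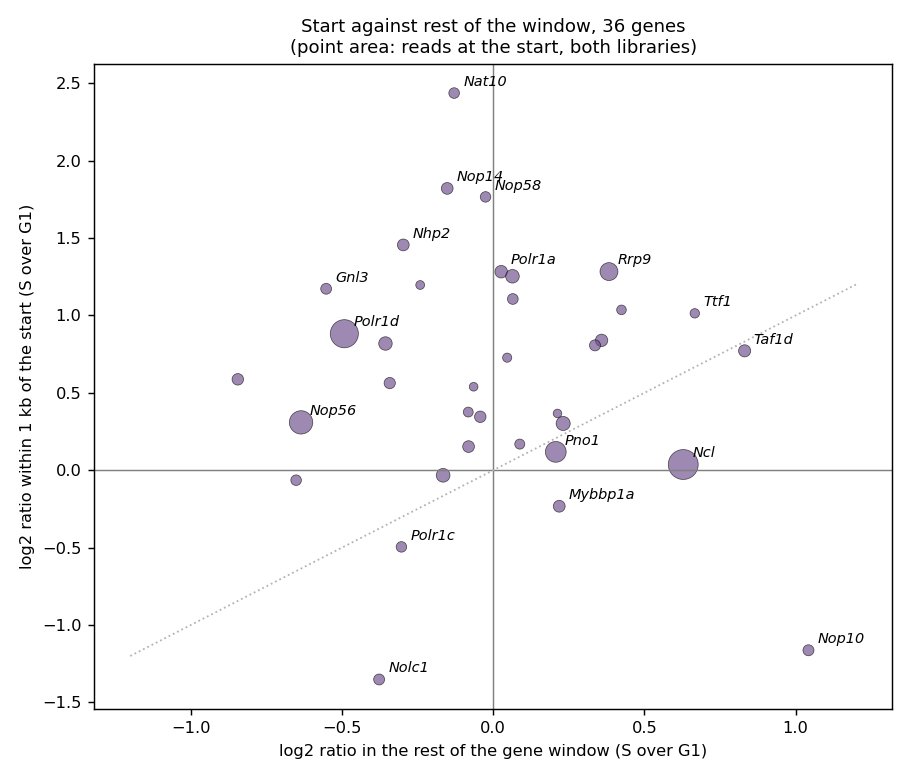
Each of 36 genes by its log2 ratio of reads in the rest of the gene window (x axis) and within 1 kb of its start (y axis), S phase over G1 phase, with point area by the number of start reads and a dotted line of equality. Points lie above 0 on the y axis in 30 of 36 genes and above 0 on the x axis in 17; Nolc1 and Nop10 lie lowest.

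In 13 of the 36 genes another gene's start in the promoter table lay within 1 kb, and in each of them the nearest other start was on the opposite strand. That table does not hold every gene, so a neighbour can have been missed. Their start windows held 1449 and 1277 reads, a ratio of 1.49 (1.38 to 1.6). The 23 genes without a listed neighbour held 1075 and 996 reads, a ratio of 1.41 (1.29 to 1.54). These intervals overlap, and by positions the ratios were 1.53 (1.29 to 1.83) and 1.45 (1.21 to 1.74). The start ratio lay above 1 in 12 of the 13 genes and in 18 of the 23.

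The sequences before 5 starts show where the stacks lie. Nop56, Rrp9 and Pno1 are those of the 5 richest starts whose highest S-phase base lay within 250 bases upstream, and Nhp2 and Nop10 are H/ACA genes whose starts had ratios far apart. Each is written 5′ to 3′ on the strand of the gene and ends at the base before the start. It comes from RefSeq promoters of GRCm38.p6, and capitals mark 11 bases around the base with the most reads, in the S-phase library for the first 4 and in the G1 library for Nop10.
Nop56 (chr2:130274162-130274411, plus strand): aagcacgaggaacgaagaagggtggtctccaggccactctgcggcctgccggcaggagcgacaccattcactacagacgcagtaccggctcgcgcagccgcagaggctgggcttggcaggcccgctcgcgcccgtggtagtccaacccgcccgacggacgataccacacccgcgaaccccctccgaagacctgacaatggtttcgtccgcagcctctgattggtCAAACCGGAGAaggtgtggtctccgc
Rrp9 (chr9:106477059-106477308, plus strand): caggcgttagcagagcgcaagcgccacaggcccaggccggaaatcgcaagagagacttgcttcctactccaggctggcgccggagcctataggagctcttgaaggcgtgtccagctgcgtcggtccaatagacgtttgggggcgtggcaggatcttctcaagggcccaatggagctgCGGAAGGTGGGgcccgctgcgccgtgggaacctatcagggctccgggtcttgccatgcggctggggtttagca
Pno1 (chr11:17211590-17211839, minus strand): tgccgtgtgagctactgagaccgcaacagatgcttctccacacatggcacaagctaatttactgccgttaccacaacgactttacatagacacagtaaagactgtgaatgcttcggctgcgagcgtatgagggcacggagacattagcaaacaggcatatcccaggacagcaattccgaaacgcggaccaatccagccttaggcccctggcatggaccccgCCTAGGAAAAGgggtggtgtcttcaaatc
Nhp2 (chr11:51619523-51619772, plus strand): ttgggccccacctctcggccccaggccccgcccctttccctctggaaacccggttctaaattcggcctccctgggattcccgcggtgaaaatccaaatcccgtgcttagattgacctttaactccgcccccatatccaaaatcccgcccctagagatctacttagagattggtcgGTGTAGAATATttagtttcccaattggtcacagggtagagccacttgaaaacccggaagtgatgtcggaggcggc
Nop10 (chr2:112261676-112261925, plus strand): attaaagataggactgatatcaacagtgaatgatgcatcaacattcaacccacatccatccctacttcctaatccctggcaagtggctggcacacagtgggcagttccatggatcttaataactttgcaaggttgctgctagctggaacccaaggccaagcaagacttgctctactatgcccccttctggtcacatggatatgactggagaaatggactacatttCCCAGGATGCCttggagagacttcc
At each of these bases the reads were antisense, so the DNA continued upstream of the end. The stacks held 55 reads at Nop56, 24 at Rrp9, 11 at Pno1, 9 at Nhp2 and 15 at Nop10, at 21, 68, 24, 70 and 20 bases upstream of the start. The stretch before Nop56 holds 25 CpG and that before Nop10 none. The first 4 are from genes with CCAAT before the start, and the last is from one of the genes with a lower start ratio in S phase.

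These stretches resembled those of other genes in composition. The 36 upstream stretches of 250 bases had a median GC content of 55.6% and 13 CpG, and those of 17492 protein-coding genes 55.2% and 10 CpG. CACGTG, the E-box that Myc binds, which is known for its control of many nucleolar genes, was found before 2 starts (5.56%), those of Nop2 and Rrn3, against 6.65% of protein-coding genes. CCAAT was found on either strand before 11 starts (30.6%, against 36.5%), and TATAAA before 2, those of Dkc1 and Pes1 (5.56%, against 12.4%). All were searched on both strands, on which CACGTG reads the same, and no motif contains another. A match is a string of letters and not a site, and neither a match nor its absence says anything about a factor in these cells. The start ratios of Nop2 and Rrn3 were 1.77 and 1.69.

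**Figure D5:**
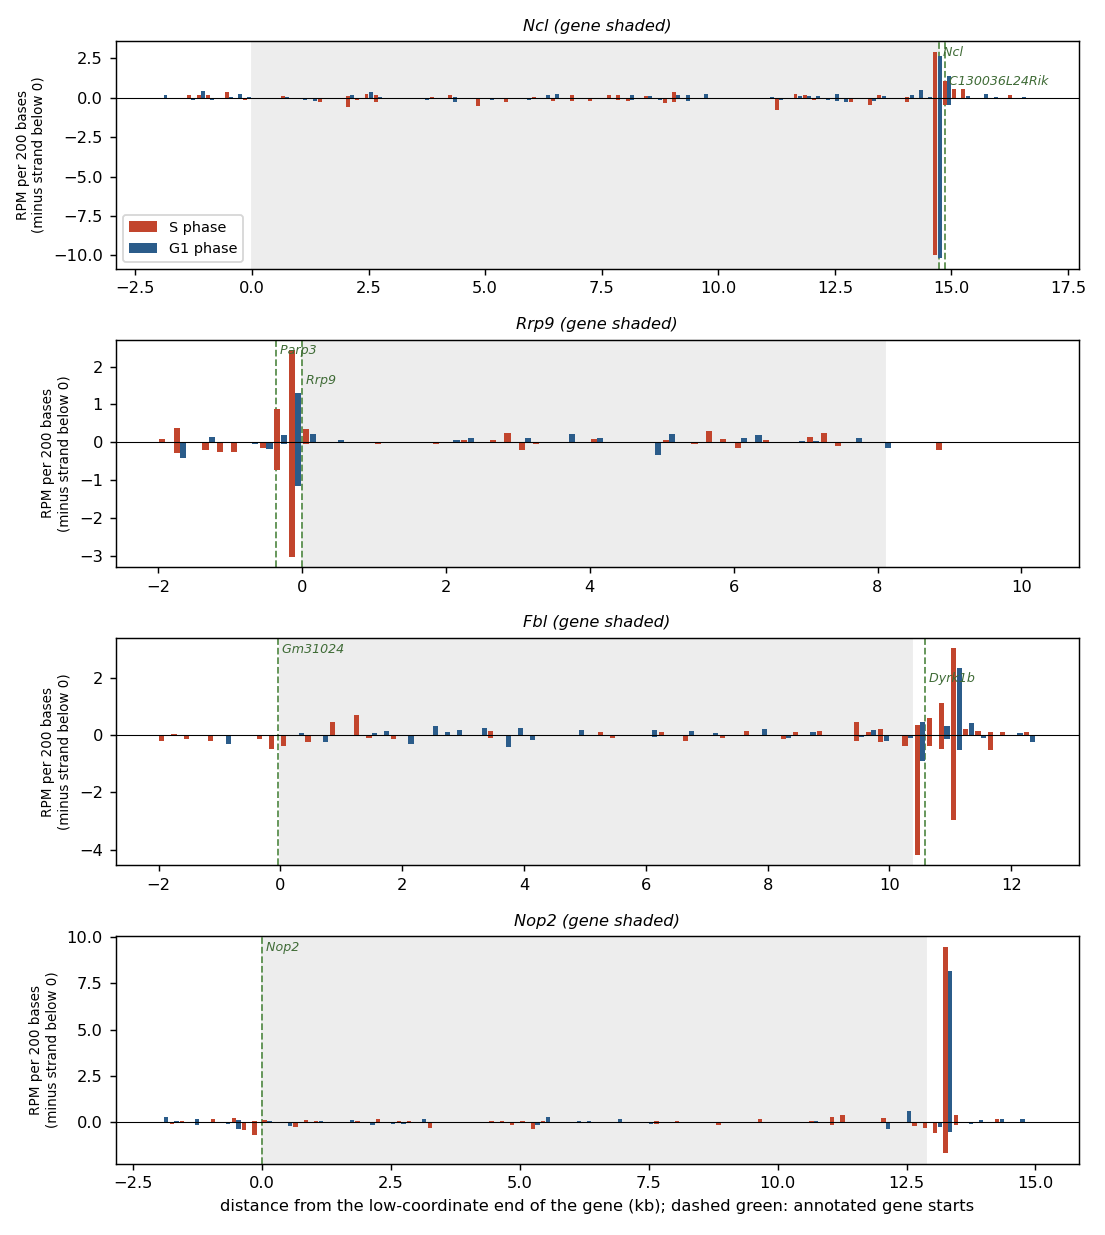
Break ends along Ncl, Rrp9, Fbl and Nop2 with 2 kb on each side, in reads per 1000000 and 200 bases, plus strand above and minus strand below 0, by distance from the low-coordinate end of the gene in kb. The gene is shaded, and a dashed line marks the first listed start of each gene. In Ncl and Rrp9 the reads pile up at the gene's own start. In Fbl they pile up beyond its end near the starts of Dyrk1b, and in Nop2 beyond its end, where Iffo1 overlaps the window.

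Genes of the same pathway that are not among the 41 gave similar values. Of 79 such genes listed for their role in ribosome production, 76 were matched, and their median log2 ratio was 0.20, with 10 called higher (13.2%) and 1 lower (1.32%). The highest were Polr2e, a subunit common to RNA polymerases I, II and III, with 117 and 59 reads (2.6, 1.88 to 3.61), the processome protein Imp3 with 197 and 115 (2.24, 1.77 to 2.85) and the helicase Ddx47 with 138 and 84 (2.15, 1.63 to 2.86). The lowest were the nucleolar protein gene Surf6 with 94 and 185 reads (0.665, 0.513 to 0.857), the shared polymerase subunit gene Polr2k with 57 and 106 (0.704, 0.501 to 0.98) and the processome gene Rrp7a with 64 and 118 (0.71, 0.515 to 0.97). Within 1 kb of the starts of 65 of them the ratio was 1.44 (1.37 to 1.5), and in the rest of their windows 1.08. Per base, these starts were 3.8 times as dense as the rest in S phase and 2.86 times in G1 phase. The start was denser in 89.2% and 80% of these genes, so the concentration at starts was not particular to the 41 genes.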

How the data were processed

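The members and lists were chosen with earlier results of these data known. Per the file headers, each library was deposited as a bedGraph track for either strand, holding raw counts of read ends at every base. The submitters' processing notes name the build mm10, bedtools, SAMtools 1.11 and Bowtie 1.1.2. How these were set, and how duplicates and reads with several matches were treated, is not given in the sources used here. Counts were added up in Python 3.11.15 with pandas 2.3.3 and numpy 2.4.6, intervals came from scipy 1.17.1 and plots from matplotlib 3.10.9. Gene bounds and promoters came from RefSeq tables of GRCm38.p6, which is the assembly behind mm10; the gene table gives no strand, so strands and starts came from the outermost promoter of a gene, which the table holds for 36 of the 41 (not Fbl, Npm1, Bop1, Rrp12 and Tcof1). Fitted log2 values have a pseudocount of 1 scaled read. A gene was tested with at least 50 reads in a library, a start with at least 20. A count of 0 allows up to 3 reads, 0.146 reads per 1000000 in S phase and 0.112 in G1 phase. With 1 library per group, a rule of size stands in for a test. All 41 genes could be named with their ratio; strand counts are given for the 3 highest and 3 lowest ratios in a role group and for those past the rule, and starts for the 5 with the most reads, while other starts and the neighbouring genes were named after their values were seen. Alternatives covered scaling, stacks, flanks, strands, thresholds and window sizes.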

Additional observations from a re-analysis of the deposited data

How the results depend on the processing

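No alternative turned the ratio of a called gene to the other side of 1. For either strand alone this was fixed beforehand, because a call needs both strands on the same side of 1. A larger pseudocount could not move a single-gene ratio, and a lower minimum of reads could not change a count. The tallies that follow include these settings. Of 131 alternative values of the summary results 110 stayed within their limits, as did 79 of 91 for single genes. For a single gene and for the pooled starts the limits were the main interval. For a median they were the medians of its genes' interval ends, and for a count a change of 1.5-fold. Medians and counts were not scored for a change of side. The median log2 ratio of the 41 genes ran from 0.01 to 0.30 over 14 settings. The count of genes higher in S phase, 6, was 3 against the 1 Mb around each gene, 3 without flanks, 3 with 5 kb flanks, 11 at the lower fold tried and 2 at a fold of 2. The count lower, 1, was 2 against the 1 Mb around, 0 by positions, 4 without flanks (Gar1, Nolc1, Ddx21 and Gnl3), 0 with 5 kb flanks, 2 over bases in no other gene, 3 on the plus strand, 2 on the minus strand and 0 at a fold of 2. Without 1 kb on each side of listed gene starts, an alternative chosen after seeing the data, 3 genes were higher (Taf1d, Ttf1 and Bop1) and 3 lower (Nop56, Gar1 and Ddx21). Except by positions, the shares of protein-coding genes under these settings were not counted, so these counts have no background beside them. The median log2 ratio of the H/ACA genes, -0.11, was 0.33 by positions and 0.33 on the plus strand; on the plus strand that of the small subunit factors was 0.43 and that of the large subunit factors 0.40. Scaling to the median gene, whose log2 ratio is 0.09, gave 1.36 (1.29 to 1.45) at the starts, and leaving out Ncl and Nop56, also chosen after seeing the data, gave 1.59. The cause of these changes was not tested. No paired analysis was possible because each group has 1 library. Genes with few reads limit what can be seen: the smallest count was 55 in S phase and 77 in G1 phase, both at Nop10.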
